A study of Homo sapiens with 12 samples.

Results

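Gene expression of U937 cells that received a LILRB3 agonist antibody was compared with that of U937 cells that received nonspecific IgG. The comparison rested on a deposited count table of 904 genes, of the 27827 named genes found in the tables of the whole series, and every listed gene was described. The table holds 6 of the 12 libraries of the series: 3 headed as agonist and 3 headed as IgG control. The other 6 libraries, an antagonist antibody and its own IgG control, served only to show where the agonist effect differed.

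U937 is a human cell line of pro-monocytic character, established from a single patient's lymphoma and grown in RPMI medium, so that all libraries come from 1 line. Per the labels, both groups were first stimulated with interferon gamma at 50 ng/mL, given to raise LILRB3. They then received the agonist antibody or IgG for 72 hours, at a concentration the labels write as 5 mg/mL. The headers of the antagonist columns also name IFN and those of the agonist columns do not. CXCL10, a gene induced by interferon gamma, had 0 counts in the IgG libraries of the antagonist set. Of 9 genes of the interferon gamma list found in both tables, 2 had 0 counts there. Others were well counted in those libraries, such as IFI30 with 7298 and WARS1 with 10474 summed counts. Whether the cells of that set had responded to interferon gamma was not tested. The labels do not state whether the 3 libraries of a group were grown as separate cultures. The p-values therefore reflect only how far these samples differ, and that spread may be technical.

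LILRB3 is an inhibitory receptor of monocytes, macrophages and granulocytes. Its intracellular tail carries ITIM motifs, which recruit tyrosine phosphatases when the receptor is engaged and dampen signals from activating receptors that use ITAM adaptors such as FCER1G and TYROBP. U937 cells resemble immature myeloid cells, and on differentiation such cells gain surface receptors, matrix-degrading enzymes and phagocytic machinery and leave the cell cycle.

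LILRB3 itself was not in the agonist table, and neither was any other gene of the LILR and LAIR list, so the receptor could not be followed in these 6 libraries. In the antagonist set it was barely counted, with 2, 1 and 2 counts in the IgG libraries and 5, 2 and 3 in the antagonist libraries. The labelled cell type was checked in that set too, since its table is complete: 10 of 11 monocytic markers reached 1 CPM in its IgG libraries, led by the granule protease CTSG at 3236 CPM. Of 21 T and NK cell markers 3 did so, of 12 B cell markers 5, of 13 erythroid markers 2 and of 15 epithelial and fibroblast markers 1, and 8, 4, 7 and 6 of these were at 0 counts. The granule protein NKG7, at 343 CPM, made up most of the T and NK total of 341 to 363 CPM, and the monocytic total was 5958 to 6821 CPM.

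The listed genes were a selection. They took between 14.6% and 14.9% of all counts in the libraries of the antagonist set, and their summed counts in the 6 libraries here, 2764479 to 3522203, are sums over listed genes only and do not give the depth of a library. Of 904 genes, 903 passed an edgeR adjusted p of 0.05 (99.9%), 503 of them higher with the agonist (55.6%) and 400 lower (44.2%), and for 882 the groups did not overlap (97.6%). Such shares show how the table was made. The tests below were run on the same libraries on which the genes were evidently chosen, so that they describe size and spread and are not independent evidence of change. A gene that is not listed could have changed or not. With DESeq2 size factors in place of TMM scaling, 717 genes passed, 317 higher and 400 lower, which put the share of higher genes at 44.2% against 55.7%. In none of 12 other settings did any gene change its direction.

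Most differences were small. The 504 genes above IgG had a median log2 fold change of 0.33, with 384 of them at 0.5 or less, 88 between 0.5 and 1 and 32 above 1. The 400 genes below IgG had a median of -0.39, with 309, 73 and 18 in the same bands. The smallest rise belonged to the integrin chain ITGB2 (0.12) and the smallest fall to the chaperone HSP90AB1 (-0.25), and no listed gene lay between them. Genes past 1 in size were low in counts, with a median of 36.6 normalised counts among the rises and 17.1 among the falls, against 1028 and 1581 for all genes of each direction. A normalised count is the count of a library divided by its TMM-scaled size relative to the geometric mean of the 6 libraries.

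**Figure D1:**
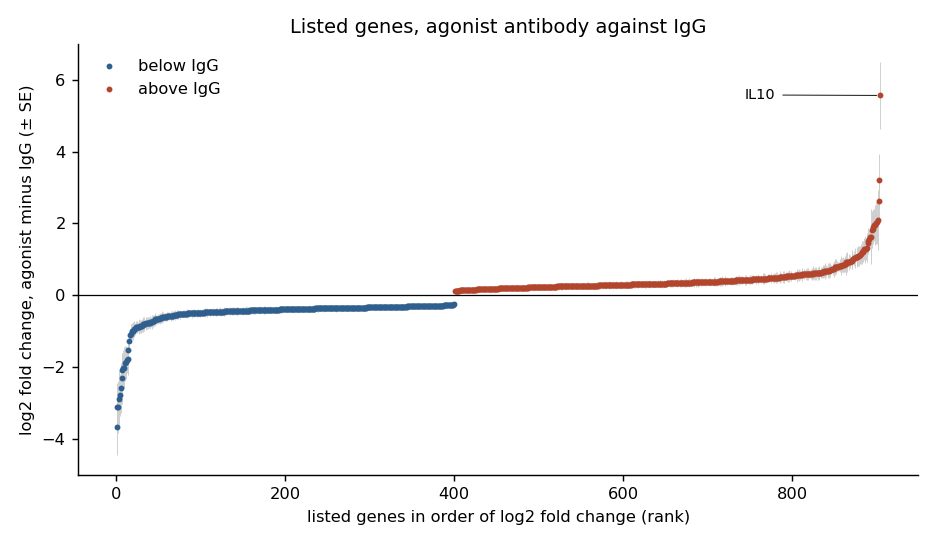
Log2 fold change of each of the 904 listed genes, agonist minus IgG (vertical axis, bars are SE), in rank order (horizontal axis), with genes below IgG in blue and above IgG in red. The gap at 0 runs from -0.25 to 0.12, and the largest rise, of IL10, rests on 69 against 1 summed counts.

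Agonist library 1 stood apart. Counts of agonist libraries 2 and 3 differed from each other by a chi-square per degree of freedom of 3.72 and from library 1 by 24.8 and 26.4, while the pairs of IgG libraries gave 5.30 to 5.67. Set against the IgG mean, the 503 higher genes had a median of 0.38 in library 1, 0.31 in library 2 and 0.30 in library 3, and the 400 lower genes -0.47, -0.37 and -0.35. Without library 1, 885 of 904 genes still passed. The ferritin light chain FTL was the most abundant listed gene and took 7.30% to 7.47% of listed counts in the IgG libraries, 9.04% in agonist library 1 and 8.15% and 8.16% in the others.

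Higher and lower genes also differed in the make-up of their transcripts. The longest transcript had a median of 2881 bases and 55.5% GC for the higher genes and 4235 bases and 46.9% GC for the lower genes, against 3469 bases and 49.4% for the genes tested in the antagonist set. Listed genes were also better counted: their median level in the IgG libraries of the antagonist set was 48.9 CPM (higher) and 67.7 CPM (lower). All genes tested there had 24.3 CPM. The part of length, GC content, level or library 1 in the results and listed shares below was not tested. In bulk RNA, fewer cells of a kind and less RNA per cell cannot be told apart.

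Receptors and enzymes of monocytes and macrophages made up the largest immune group among the listed genes. The list holds 51 genes with enough counts to be tested in the antagonist set, and 18 of them (35.3%) were in the agonist table, against 6.29% of all tested genes there. With 6 more that were too low to be tested in that set, 24 listed members all rose. Their log2 fold changes had a median of 0.52, where all 504 genes above IgG had 0.33. All 400 genes below IgG had -0.39, and both medians belong beside the list medians below. The groups did not overlap for 22 of them, against 97.6% of all listed genes. That share belongs beside every such count below, as 6.29% does beside every share of a list's tested genes.

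CD14, the co-receptor for bacterial lipopolysaccharide, had 333, 327 and 265 normalised counts in the IgG libraries and 589, 596 and 577 in the agonist libraries. All agonist libraries lay well above all IgG libraries, and the log2 fold change was 0.93 ± 0.11 (SE, edgeR adjusted p = 9.16e-05). CD163, the scavenger receptor for haemoglobin, had 485, 535 and 389.6 normalised counts in the IgG libraries and 778, 887 and 789 in the agonist libraries, a rise of 0.80 ± 0.11 (SE). The beta-glucan receptor CLEC7A was low, with 42.5, 29.8 and 30.2 normalised counts in the IgG libraries and 96.4, 79.1 and 54.8 in the agonist libraries, and rose by 1.16 ± 0.27. In both genes the lowest agonist library was above the highest IgG library.

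S100A8, S100A9 and S100A12, of the S100 family, are calcium-binding proteins secreted by activated monocytes and granulocytes. S100A12 had 31.9, 61.9 and 22.1 normalised counts in the IgG libraries and 102, 87.2 and 89.8 in the agonist libraries (log2 fold change 1.29 ± 0.30, SE), with a wide spread among the IgG libraries. S100A8 rose by 0.55 ± 0.12, S100A9 by 0.50 ± 0.09, S100A4 by 0.41 ± 0.09 and S100A10 by 0.29 ± 0.08, so that 5 of 5 listed members of the S100 and annexin list rose (median 0.50). In the S100 and annexin list agonist library 1 had a median of 0.74 against the IgG mean and libraries 2 and 3 had 0.37 and 0.35. The table held 3 of the 14 members tested in the antagonist set (21.4%).

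CSF1R, the receptor for macrophage colony-stimulating factor, was an exception in its spread. It had 152, 110.0 and 126 normalised counts in the IgG libraries and 148, 193 and 279 in the agonist libraries, so that 1 agonist library fell inside the range of the IgG libraries, and its log2 fold change of 0.67 ± 0.22 (SE) no longer passed without agonist library 3 (0.39). The lectin-family receptor CD93 also overlapped (0.16), and it did not pass with DESeq2 size factors (0.06) or with any 1 of 5 libraries left out (0.11 to 0.16). Of the 24 rises 21 passed with those size factors. The remaining members included the fatty acid and thrombospondin receptor CD36 (0.58 ± 0.09), the sialic acid receptor SIGLEC1 (0.57), the integrin chain ITGAX (0.54 ± 0.06), the costimulatory ligand CD86 (0.38 ± 0.12) and the urokinase receptor PLAUR (0.33). CD86 was lost with DESeq2 size factors (0.28) and without agonist library 3 (0.30).

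Promoter sequences were searched for short motifs that bind factors known from each group. RefSeq promoters (GRCh38.p14) were found for 688 of the 904 listed genes, and 10 motifs were searched on both strands in the 250 bases before the start site, beside all 27305 promoters in the table. The pattern TGANTCA, with N for any base, was searched for the AP-1 site bound by FOS and JUN proteins. It was in 6 of 16 promoters of the monocyte list and in 6.60% of all promoters. The share was 5.99% for the higher and 3.44% for the lower genes. The match was TGAGTCA in CD14 and CSF1R and TGAATCA in S100A12, and binding was not tested. The 3 below are shown because their genes are described above; capitals mark the site and each line reads along the gene's strand.
CD14, chr5:140633367-140633423, minus strand: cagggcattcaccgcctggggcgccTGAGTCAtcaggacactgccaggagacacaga
S100A12, chr1:153375647-153375703, minus strand: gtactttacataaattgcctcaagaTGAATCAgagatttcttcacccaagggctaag
CSF1R, chr5:150113368-150113424, minus strand: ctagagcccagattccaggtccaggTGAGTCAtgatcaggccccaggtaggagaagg

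Genes of phagocytosis and complement moved the same way. All 9 listed members of that list, 36% of the 25 tested in the antagonist set, rose (median 0.34). With DESeq2 size factors 7 of the 9 passed. Among the 9 were the inhibitory Fc receptor FCGR2B (0.40 ± 0.08), properdin CFP (0.39 ± 0.10), which stabilises the complement convertase, and the neonatal Fc receptor FCGRT (0.34 ± 0.07). The activating Fc receptor FCGR2A had 0.17 ± 0.07 and was one of the calls lost with DESeq2 size factors (0.07). ITGB2 (0.12) was lost with those size factors (0.02) and without IgG library 1 (0.11) or 3 (0.11). Of 6 listed genes of ITIM and ITAM signalling 5 rose and 1 fell (median 0.40). The 6 were 12.2% of those tested in the antagonist set. The ITAM adaptor TYROBP had 2574, 2170.1 and 2302 normalised counts in the IgG libraries and 3936, 3165 and 3148 in the agonist libraries (log2 fold change 0.54 ± 0.09, SE), and all agonist libraries were above all IgG libraries. The ITAM adaptor FCER1G rose by 0.30 ± 0.07, the adaptor HCST by 0.43 ± 0.08 and the ITIM-bearing receptors PILRA and PECAM1 by 0.48 ± 0.09 and 0.38 ± 0.06. The kinase subunit PIK3CD was lower (-0.27 ± 0.06).

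Enzymes and proteins of the matrix held several of the largest rises. Of 15 listed members 14 rose and 1 fell (median 0.42), and 14 did not overlap between groups, against 97.6% of all listed genes. The table held 11 of the 34 matrix genes tested in the antagonist set (32.4%). Of the 14 rises 12 passed with DESeq2 size factors. Osteopontin, SPP1, a secreted phosphoprotein of macrophages, had 797, 661 and 888 normalised counts in the IgG libraries and 1913, 1880.0 and 1767 in the agonist libraries, and its log2 fold change was 1.24 ± 0.10 (SE, edgeR adjusted p = 7.67e-06). The gelatinase MMP9 had 6955, 7661 and 6956 normalised counts in the IgG libraries and 12814, 11386 and 11448 in the agonist libraries (0.72 ± 0.06, SE). The interstitial collagenase MMP1 had 378, 325 and 323 normalised counts in the IgG libraries and 676, 729.7 and 732 in the agonist libraries (1.06 ± 0.10, SE). For each of these 3 secreted proteins every agonist library was above every IgG library, by a margin larger than the spread within either group.

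The protease inhibitor A2M rose by 1.47 ± 0.24 and the tartrate-resistant phosphatase ACP5 by 1.91 ± 0.49, the latter from 9.67, 2.29 and 19.1 normalised counts in the IgG libraries and 57.1, 29.4 and 34.0 in the agonist libraries. ACP5 is a low-count gene with an uneven IgG group. TIMP1, an inhibitor of metalloproteinases, was higher by 0.43 ± 0.06. The exception, LTBP1, a carrier of latent TGF-beta, fell by 0.80 on the log2 scale. All 7 listed adhesion genes rose (median 0.38), led by the integrin chain ITGB5 (0.69 ± 0.12) and including SELPLG, the ligand of P-selectin (0.44 ± 0.09). With DESeq2 size factors 5 of the 7 passed, and ITGA3 (0.20) and ITGB2 (0.02) did not. The 7 were 18.4% of the adhesion genes tested in the antagonist set.

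Cytokine genes were few. IL10, an anti-inflammatory cytokine, had 1, 0 and 0 counts in the IgG libraries and 16, 16 and 37 in the agonist libraries. Over the summed counts the ratio was 63.6, with a 95% counting interval of 11.03 to 2546 that covers counting error only. All agonist libraries held IL10 reads and the IgG libraries held a single read. Of 7 listed cytokines, chemokines and receptors 5 rose and 2 fell (median 0.39). The table held 4 of the 60 such genes tested in the antagonist set (6.67%), near the 6.29% of all tested genes. The neutrophil chemokine CXCL8 was higher (0.46 ± 0.12), and the interleukin 1 receptor antagonist IL1RN (-0.38 ± 0.09) was lower. The NF-kB list had 3 listed members, with the kinase RIPK1 lower (-0.81 ± 0.21) and CXCL8 and NFKBID higher. Of 36 NF-kB genes tested in the antagonist set 2 were listed (5.56%). Of 6 listed checkpoint and anti-inflammatory genes 5 rose and 1 fell, with the amino acid oxidase IL4I1 at 0.59 ± 0.09, the inhibitory ligand VSIR at 0.31 ± 0.07 and LGALS9 at 0.28 ± 0.08. The table held 4 of the 16 such genes tested in the antagonist set (25%).

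**Figure D2:**
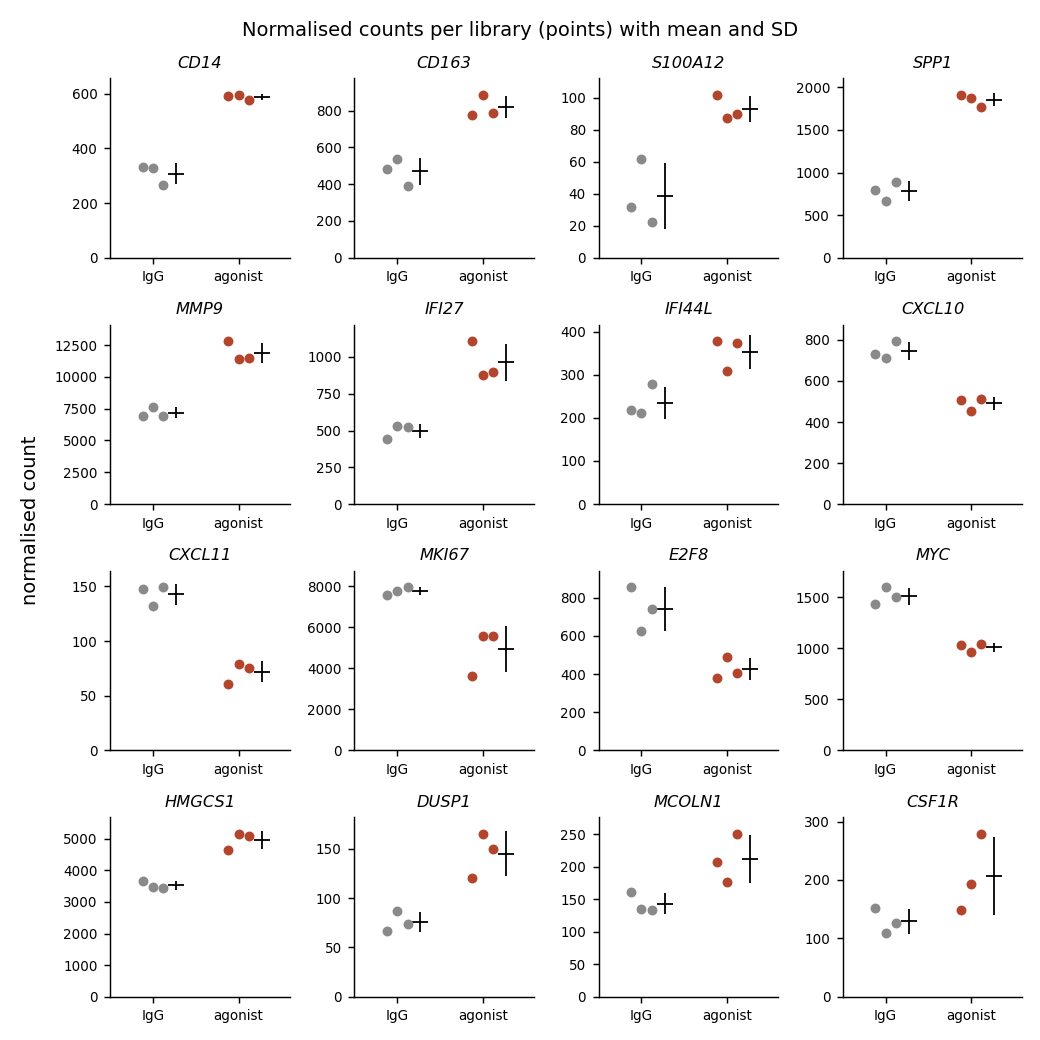
Normalised counts of 16 listed genes in each of the 3 IgG libraries (grey points) and 3 agonist libraries (red points), with the mean and SD of each group in black, on axes that start at 0. The groups are separate for 15 of these genes and overlap for CSF1R.

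Genes induced by type I interferon rose together. Of 48 such genes tested in the antagonist set 16 were listed (33.3%), and with 3 more too low to be tested there 19 listed members all rose without overlap (median 0.36), 16 of them also with DESeq2 size factors. IFI27, an interferon-induced membrane protein, had 445, 528 and 525 normalised counts in the IgG libraries and 1108, 881 and 899 in the agonist libraries (log2 fold change 0.95 ± 0.11, SE, edgeR adjusted p = 9.16e-05). IFI6, an inhibitor of cell death and of viral replication, had 14684, 15502 and 14933 normalised counts in the IgG libraries and 25724, 20394 and 20342 in the agonist libraries (0.56 ± 0.08, SE). IFI44L had 218, 211 and 278 normalised counts in the IgG libraries and 378, 308 and 374 in the agonist libraries (0.59 ± 0.14, SE). In IFI27 and IFI6 agonist library 1 was the highest of the 6.

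The other members ranged from IFI35 at 0.62 ± 0.20 down to the signalling components STAT2 (0.21) and IRF9 (0.19), which take part in the factor that drives this group and did not pass with DESeq2 size factors (0.12 and 0.09). IRF9 was also lost without IgG library 1 (0.17). Among them were the ubiquitin-like modifier ISG15 (0.31), its activating enzyme UBA7 (0.42 ± 0.06), BST2, which holds budding virus at the membrane (0.36), the sensor of double-stranded RNA OAS2 (0.35), and IFIT1 (0.33) with its partner IFIT3 (0.49 ± 0.12). Set against the IgG mean, the list's median was 0.41, 0.36 and 0.38 in agonist libraries 1, 2 and 3.

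The interferon-stimulated response element, searched on both strands as GAAANNGAA, was in 11 of 15 promoters of this list (73.3%) and in 7.06% of all promoters. It was in 38 of 367 promoters of the higher genes (10.4%) and in 18 of 320 of those of the lower genes. In the 11 promoters the site nearest to the start lay a median of 84 bases before it. The list was drawn up from genes known to respond to interferon, so the motif describes the list and not the antibody. These 6 promoters carry the element in members described above, with the site in capitals.
IFI27, chr14:94110616-94110674, plus strand: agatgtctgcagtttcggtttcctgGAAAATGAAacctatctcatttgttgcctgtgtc
IFI6, chr1:27672252-27672310, minus strand: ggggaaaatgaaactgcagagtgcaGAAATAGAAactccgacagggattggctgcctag
IFI44L, chr1:78620350-78620408, plus strand: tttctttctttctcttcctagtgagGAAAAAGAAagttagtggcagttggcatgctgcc
IFIT1, chr10:89392496-89392554, plus strand: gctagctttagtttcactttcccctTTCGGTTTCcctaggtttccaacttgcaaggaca
IFIT3, chr10:89327851-89327909, plus strand: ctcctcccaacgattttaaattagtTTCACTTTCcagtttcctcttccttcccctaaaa
ISG15, chr1:1013371-1013429, plus strand: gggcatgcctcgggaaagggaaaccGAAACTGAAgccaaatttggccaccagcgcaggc

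Genes known for their response to interferon gamma split, in cells that per their labels had all received interferon gamma. Of 9 listed members 6 rose and 3 fell (median 0.18), all without overlap, and with DESeq2 size factors 3 rises and 3 falls passed (median 0.08). The table held 6 of the 30 members tested in the antagonist set (20%). CXCL10 and CXCL11, chemokines that attract activated T cells, fell. CXCL10 had 731, 710.4 and 794 normalised counts in the IgG libraries and 508, 455 and 512 in the agonist libraries (-0.60 ± 0.09, SE). CXCL11 had 148, 132 and 149 normalised counts in the IgG libraries and 60.8, 79.1 and 75.7 in the agonist libraries (-0.99 ± 0.18, SE). Every agonist library was below every IgG library in both. The tryptophanyl-tRNA synthetase WARS1 also fell (-0.40 ± 0.06).

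The complement inhibitor SERPING1 rose by 0.82 ± 0.18, the feedback inhibitor of cytokine signalling SOCS3 by 0.71 ± 0.20 and the lysosomal thiol reductase IFI30 by 0.51 ± 0.06. The rises of the transcription factor IRF1 (0.19 ± 0.06) and of the guanylate-binding proteins GBP5 (0.18 ± 0.07) and GBP2 (0.17) were small and did not pass with DESeq2 size factors (0.09, 0.08 and 0.08). GBP5 was also lost without IgG library 1 (0.18), IgG library 3 (0.15) or agonist library 3 (0.13), IRF1 without IgG library 3 (0.14) and GBP2 without IgG library 3 (0.15) or agonist library 2 (0.15). Of antigen presentation genes, B2M (0.19 ± 0.05), HLA-B (0.22 ± 0.08) and HLA-DRB1 (0.27 ± 0.07) were higher, and HLA-B overlapped between groups. With DESeq2 size factors B2M (0.09) and HLA-B (0.13) did not pass. HLA-B was also lost without IgG library 1 (0.21), IgG library 2 (0.19) or agonist library 1 (0.13).

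Genes of cell division formed the largest group among the lower genes. Of 122 G2/M and mitosis genes tested in the antagonist set 46 were listed (37.7%), and all 46 fell without overlap, with a median of -0.38. MKI67, the proliferation marker that coats mitotic chromosomes, had 7594, 7798 and 7949 normalised counts in the IgG libraries and 3652, 5600.4 and 5571 in the agonist libraries (-0.66 ± 0.12, SE, edgeR adjusted p = 0.000591). Agonist library 1 was far below the other agonist libraries in MKI67. CCNF, a cyclin that serves as a ubiquitin ligase subunit, had 1259, 1212 and 1171 normalised counts in the IgG libraries and 879, 811 and 760.3 in the agonist libraries (-0.57 ± 0.08, SE). BUB1B, a checkpoint kinase of the kinetochore, had 3989, 3900.2 and 4044 normalised counts in the IgG libraries and 2400.0, 2999.9 and 3010.1 in the agonist libraries (-0.51 ± 0.08, SE).

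Members came from each step of mitosis. They included the entry phosphatase CDC25A (-0.49 ± 0.08), the kinases AURKA (-0.38), BUB1 (-0.35) and PLK1 (-0.35), the condensin subunits NCAPD2 (-0.45) and NCAPD3 (-0.40), the kinetochore proteins NDC80 (-0.43), NUF2 (-0.39) and CENPE (-0.47 ± 0.13), the topoisomerase TOP2A (-0.35), separase ESPL1 (-0.38) and the cytokinesis factors PRC1 (-0.38) and ANLN (-0.29). All 6 listed kinesins, 17.6% of those tested, fell (median -0.39), among them the spindle motor KIF11 (-0.41 ± 0.08) and KIFC1 (-0.50 ± 0.07). The median of the G2/M list against the IgG mean was -0.47 in agonist library 1, -0.34 in library 2 and -0.34 in library 3.

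The CHR element TTTGAA, found near the start of many genes that peak at G2 and M, was in 24 of 42 promoters of this list (57.1%) and in 13.6% of all promoters. It was in 8.17% of promoters of the higher genes and 19.1% of those of the lower genes. Of the 61 promoters of lower genes that held it, 24 were of this list. The list was drawn up from genes of G2/M and mitosis, so the motif describes the list and not the antibody. The nearest site lay a median of 24 bases before the start. The CCAAT box, bound by NF-Y, was in 28 of 42 (66.7%) and in 33.0% of all promoters. The 5 CHR sites below are from members named above and are in capitals.
MKI67, chr10:128126424-128126477, minus strand: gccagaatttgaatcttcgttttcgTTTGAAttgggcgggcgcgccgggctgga
CCNF, chr16:2429337-2429392, plus strand: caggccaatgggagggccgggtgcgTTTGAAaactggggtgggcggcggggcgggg
BUB1B, chr15:40161021-40161068, plus strand: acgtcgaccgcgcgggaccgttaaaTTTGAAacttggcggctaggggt
PLK1, chr16:23678835-23678888, plus strand: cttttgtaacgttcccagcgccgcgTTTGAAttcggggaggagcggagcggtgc
KIF11, chr10:92593077-92593129, plus strand: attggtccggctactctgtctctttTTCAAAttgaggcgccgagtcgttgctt

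**Figure D3:**
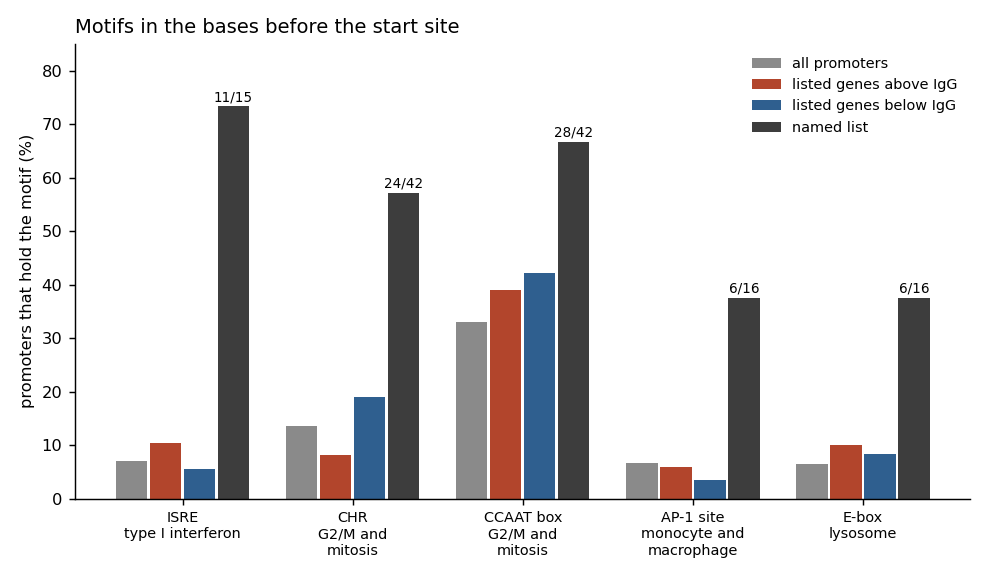
Share of promoters (%) that hold a motif within 250 bases before the start site, for all promoters, for listed genes above and below IgG and for 1 gene list each, with counts above the bar of the list. The list bars stand at 73.3% for ISRE, 57.1% for CHR and 66.7% for the CCAAT box.

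Among the listed genes of DNA replication and repair, all fell. The table held 15 of 79 S phase genes tested in the antagonist set (19.0%), where it held 6.29% of all tested genes. These 15 had a median of -0.39, among them E2F8, a repressive member of the E2F family, with 854, 624 and 739.9 normalised counts in the IgG libraries and 377, 488 and 407 in the agonist libraries (-0.81 ± 0.13, SE). The origin recognition subunit ORC1 fell by 0.48, the loading factor CDC6 had -0.39 and the helicase subunits MCM2, MCM4 and MCM6 had -0.29, -0.31 and -0.37. Of 65 repair genes 10 were listed (15.4%) and fell (median -0.39), such as the mismatch repair protein PMS2 (-0.60 ± 0.11), the nuclease EXO1 (-0.53 ± 0.08) and BARD1, the partner of BRCA1 (-0.51 ± 0.09). Of 3 listed genes of G1 control, the cyclin CCND2 was lower (-0.34 ± 0.08), while the inhibitor CDKN1B (0.26 ± 0.06) and BTG1 (0.16 ± 0.06) were higher. BTG1 did not pass with DESeq2 size factors (0.06) or without IgG library 2 (0.14) or 3 (0.13).

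Of 6 listed histone genes 4 rose, 1 fell and 1 did not pass: H1-2 (0.62 ± 0.12), H2AC6 (0.50 ± 0.09), H2AC19 (0.48 ± 0.11) and H2BC21 (0.38 ± 0.08) rose, and the repair histone H2AX fell (-0.35 ± 0.07). H3C4 was the 1 listed gene that did not pass (adjusted p = 0.0518, edgeR), with 3 IgG libraries between 0 and 22.1 normalised counts and agonist libraries between 17.0 and 38.5. The table held 5 of the 19 histone genes tested in the antagonist set (26.3%). Histone genes occur in near copies that can share reads.

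MYC, a transcription factor that drives ribosome production, had 1432, 1594 and 1496 normalised counts in the IgG libraries and 1028, 959 and 1038 in the agonist libraries (-0.58 ± 0.07, SE, edgeR adjusted p = 0.000169), and all agonist libraries were below all IgG libraries. Of 80 genes of ribosome biogenesis and MYC targets 6 were listed (7.5%), a share near that of all genes, and these 6 fell (median -0.40), among them POLR1E, a subunit of RNA polymerase I (-0.44 ± 0.10), and nucleophosmin NPM1 (-0.28 ± 0.05). Of 82 ribosomal protein genes 17 were listed (20.7%), of which 16 fell and 1 rose (median -0.34). RPL3 had 21665, 21253 and 22588 normalised counts in the IgG libraries and 17796, 15572 and 16062 in the agonist libraries (-0.41 ± 0.06, SE). The exception was RPL22L1 (0.25), a paralog of RPL22, whose rise did not pass with DESeq2 size factors or without IgG library 1. Here agonist library 1 was nearer to IgG than the others, with a list median of -0.25 against -0.40 and -0.40. Ribosomal protein genes have near copies that can take up their reads.

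Of 45 translation factors 6 were listed (13.3%) and fell (median -0.33), led by EIF3C (-0.50 ± 0.08), which has a near copy, and the elongation factor EEF2 (-0.40 ± 0.04). Aminoacyl-tRNA synthetases (2 of 36 listed, 5.56%) and mitochondrial ribosomal proteins (2 of 78, 2.56%) were listed no more often than other genes. The listed ones, LARS2, WARS1, MRPS27 and MRPS22, fell. The 5 listed genes of nucleotide and one-carbon synthesis fell (median -0.39), including IMPDH2, the rate-limiting enzyme of guanine nucleotide synthesis (-0.46 ± 0.06), and SHMT2 (-0.34 ± 0.05). These 5 were 12.2% of those tested. The asparagine synthetase ASNS (-0.44 ± 0.09) was 1 of 3 listed amino acid genes (8.33% of those tested), all lower. All 7 listed cytosolic chaperones, 20% of those tested, fell (median -0.37), such as HSPA8 (-0.28 ± 0.05), STIP1 (-0.40 ± 0.05) and HSPH1 (-0.37 ± 0.09). PSMD11 and PSMD14, 2 of 44 proteasome genes (4.55%), also fell. The only listed gene of the unfolded protein response, CRELD2 (2.44% of those tested), rose (0.37 ± 0.08).

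Of 70 chromatin regulators tested in the antagonist set 13 were listed (18.6%), and these 13 fell (median -0.33), from the histone methyltransferase SETD1B (-0.67 ± 0.12) to the polycomb-associated ASXL1 (-0.28), with the bromodomain protein BRD3 (-0.37 ± 0.09) and the remodelling subunit ARID1A (-0.39 ± 0.09) among them. Of splicing and RNA-binding genes 6 of 62 were listed (9.68%), and of nuclear pore and transport genes 8 of 48 (16.7%), and all of these fell (medians -0.30 and -0.37). Of 63 genes of RNA polymerase II and its cofactors, a list drawn up after the values were seen, 14 were listed (22.2%). Of these 13 fell and MED28 rose (0.22), a rise lost with DESeq2 size factors (0.12) and without IgG library 2 (0.14) or agonist library 2 (0.21), with the large subunit POLR2A at -0.45 and the Mediator subunit MED1 at -0.58. The chromatin list has long transcripts, with a median of 7169 bases, and the polymerase II list 6499 bases.

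Listed mitochondrial genes did not all move the same way, and the nuclear-encoded MRPS22 and MRPS27 fell, as given above. All 7 listed genes of the mitochondrial genome fell (median -0.36), such as the ATP synthase subunit ATP8 with 1098, 1110.3 and 1100.3 normalised counts in the IgG libraries and 777, 736 and 821 in the agonist libraries (-0.50 ± 0.08, SE). The 7 were 46.7% of the 15 tested in the antagonist set. The nuclear subunits of the respiratory chain were few, 5 of the 82 tested in the antagonist set (6.10%), a share near the 6.29% of all tested genes. All 5 rose (median 0.27), among them ATP5MC1 (0.46 ± 0.13) and COX6B1 (0.22 ± 0.07). With DESeq2 size factors 2 of the 5 rises passed, and COX6B1 (0.13) did not. These 5 have short transcripts, with a median of 774 bases. Mitochondrial genes have nuclear copies that can share reads.

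Genes of cholesterol and fatty acid synthesis rose by small amounts. Of 38 genes tested in the antagonist set 15 were listed (39.5%), and all 15 rose (median 0.25). The groups did not overlap for 14 of them, against 97.6% of all listed genes. HMGCS1, which makes the precursor of mevalonate, had 3674, 3458 and 3438 normalised counts in the IgG libraries and 4643, 5156 and 5084 in the agonist libraries (0.49 ± 0.06, SE, edgeR adjusted p = 0.000104). The sterol sensor INSIG1 had 7422, 7409 and 7574 normalised counts in the IgG libraries and 9491, 9866 and 9655 in the agonist libraries (0.37 ± 0.05, SE). For HMGCS1 agonist library 1 was the lowest of the agonist libraries. With DESeq2 size factors 8 of the 15 rises passed. The CCAAT box was in 9 of 11 promoters of the list, and the sterol element TCACCCCAC was in 0 of 11 and in 0.348% of all promoters.

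Lysosomal genes rose too, by still smaller amounts. All 22 listed members rose (21 of the 80 tested in the antagonist set, 26.3%), with a median of 0.21, and with DESeq2 size factors 10 of 22 passed. The proteases CTSB (0.32 ± 0.05), CTSD (0.23) and CTSO (0.85 ± 0.19), the glycosidases FUCA1 (0.31 ± 0.05) and HEXA (0.15) and the proton pump subunits ATP6V0D1 (0.27) and ATP6V0B (0.20) were among the 22. HEXA (0.06), ATP6V0D1 (0.17) and ATP6V0B (0.10) did not pass with those size factors. MCOLN1, a calcium channel of the lysosome, had 161, 135 and 133 normalised counts in the IgG libraries and 208, 176 and 251 in the agonist libraries (0.56 ± 0.16, SE), with no overlap. Lists of transport to the lysosome and of autophagy were drawn up after the values were seen. They had 14 of 16 and 9 of 10 members higher, with the dynein adaptor RILP at 1.28 ± 0.31 and VMP1, needed to form autophagosomes, at 0.44. Of these rises 8 and 5 passed with DESeq2 size factors. The groups did not overlap for 14 of the 16 and 10 of the 10. The table held 29.6% and 18.5% of the members tested in the antagonist set.

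The E-box CACGTG, the core of sites bound by MYC and by the lysosomal regulators of the TFE family, was in 6 of 16 promoters of the lysosome list and in 6.49% of all promoters, with 10.1% for the higher and 8.44% for the lower genes. Of 12 S phase promoters, 3 held the E2F site TTTGGCGC (0.553% of all promoters) and 2 held TTTCCCGC (1.42%). The PU.1 site GAGGAAGT was in 1 of 16 monocyte promoters (2.13% of all) and the CRE TGACGTCA in 1 of 10 immediate early promoters (1.77%). These 2 E-box promoters belong to lysosomal genes named above.
CTSD, chr11:1763944-1763999, minus strand: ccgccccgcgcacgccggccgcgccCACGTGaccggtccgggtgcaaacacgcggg
MCOLN1, chr19:7522585-7522623, plus strand: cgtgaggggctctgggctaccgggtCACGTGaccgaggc

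Of 12 listed immediate early genes 11 rose and 1, MYC, fell (median 0.32). The 12 were 35.3% of the 34 tested in the antagonist set, against 6.29% of all tested genes. DUSP1, a phosphatase that switches off MAP kinases, had 66.7, 87.1 and 73.5 normalised counts in the IgG libraries and 121, 165 and 149 in the agonist libraries (0.94 ± 0.19, SE). The MAP kinase phosphatases DUSP5 (0.33 ± 0.10) and DUSP6 (0.45 ± 0.10), the mRNA-destabilising protein ZFP36 (0.46 ± 0.08) and the AP-1 subunits FOS (0.33 ± 0.06) and JUNB (0.35 ± 0.09) were higher, and JUN (0.26) overlapped between groups and was lost with DESeq2 size factors (0.17) and without IgG library 3 (0.20) or agonist library 1 (0.17). Of the 11 rises 8 passed with those size factors. Of 5 listed myeloid transcription factors RUNX1 fell (-0.47 ± 0.08) and RUNX2 rose (0.27 ± 0.10), as did STAT6 (0.34 ± 0.08), NR4A1 and ID2. The 5 were 10.4% of those tested in the antagonist set. RUNX2 (0.18) and ID2 (0.11) did not pass with DESeq2 size factors. RUNX2 was also lost without IgG library 2 (0.22) or agonist library 2 (0.21), and ID2 without IgG library 2 (0.16). Of 5 granule and progenitor genes MS4A3, a marker of granulocyte and monocyte progenitors, fell (-0.70 ± 0.16), and the granule ribonucleases RNASE2 (0.36 ± 0.08) and RNASE3 (0.50 ± 0.12) rose with BEX1 (0.18) and SRGN (0.13). These 5 granule and progenitor genes were 16.1% of those tested in the antagonist set. With DESeq2 size factors BEX1 (0.09) and SRGN (0.03) did not pass. BEX1 was also lost without IgG library 1 (0.19), IgG library 3 (0.17) or agonist library 1 (0.11), and SRGN without IgG library 2 (0.10).

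In metabolism and iron storage, both ferritin chains were higher, FTH1 by 0.37 ± 0.05 and FTL by 0.21 ± 0.06, with the antioxidant enzyme GPX1 (0.30 ± 0.08) higher and GSR (-0.37 ± 0.07) lower. The rise of FTL did not pass with DESeq2 size factors (0.11). Of 46 iron, haem and oxidative stress genes tested in the antagonist set 5 were listed (10.9%). The 4 listed glycolysis and hypoxia genes, 11.1% of those tested, rose, among them hexokinase HK3 (0.48 ± 0.11) and TXNIP, an inhibitor of glucose uptake (0.45 ± 0.04). The rises of the lactate carrier SLC16A3 (0.20) and the glucose carrier SLC2A3 (0.14) were lost with DESeq2 size factors (0.11 and 0.04). SLC16A3 was also lost without IgG library 1 (0.16), and SLC2A3 with listed totals (0.12) and without IgG library 2 (0.10) or agonist library 2 (0.13) or 3 (0.13). Of 7 lipid uptake and efflux genes 6 rose and CPT1A, which admits fatty acids to mitochondria, fell (-0.31 ± 0.06). The 7 were 18.4% of those tested, and 4 of the 6 rises passed with DESeq2 size factors. Of 13 listed actin genes 9 rose and 4 fell: the severing protein gelsolin, GSN, rose (0.60 ± 0.09), and the cross-linker ACTN1 (-0.32 ± 0.07), the myosin MYH9 (-0.31 ± 0.06), WASF2 and CDC42EP4 fell. The 13 were 17.6% of those tested, and 5 of the 9 rises passed with DESeq2 size factors. The single listed genes of apoptosis, PYCARD (0.29), and of the p53 targets, GADD45B (0.22), did not pass with DESeq2 size factors (0.19 and 0.13), and GADD45B was also lost without IgG library 1 (0.19). They were 2.44% and 3.85% of the genes of their lists tested in the antagonist set, under the 6.29% of all tested genes.

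Of 15 listed solute carriers 13 rose and 2 fell, of 12 numbered zinc finger genes 6 rose and 6 fell, and of 11 noncoding RNAs 8 rose and 3 fell, among the rises NEAT1 (0.37 ± 0.05) and MALAT1 (0.29). Of these rises 7, 4 and 7 passed with DESeq2 size factors. The table held 6.45% of the solute carriers tested in the antagonist set, 3.25% of the zinc finger genes and 2.04% of the noncoding RNAs. These shares are near or under the 6.29% of all tested genes. Of 13 TMEM genes 11 and of 14 CD-numbered surface proteins 12 rose, both lists drawn up after the values were seen. Of these rises 7 and 10 passed with DESeq2 size factors. The table held 7.43% of the tested TMEM genes and 16.7% of the tested CD-numbered ones. Strand is not given in the sources used here, so reads of antisense RNAs such as ITGB2-AS1 (0.36 ± 0.13) cannot be told apart from those of their partners. The rise of ITGB2-AS1 was lost with DESeq2 size factors (0.27) and without IgG library 1 (0.22). Of the 11 monocytic markers checked in the antagonist set only 1 was listed, CSF1R, whose groups overlapped. None of the B cell, erythroid or epithelial markers were listed. Of the T and NK markers 2 were, with CD247, the zeta chain of the T cell receptor complex and of some Fc receptors, at 159, 143 and 139 normalised counts in the IgG libraries and 75.8, 60.8 and 68.1 in the agonist libraries (-1.10 ± 0.17, SE) and NKG7 at 0.22 ± 0.07, which did not pass with DESeq2 size factors (0.13). In all, 374 listed genes were members of at least 1 of the 53 main lists and 530 of none.

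**Figure D4:**
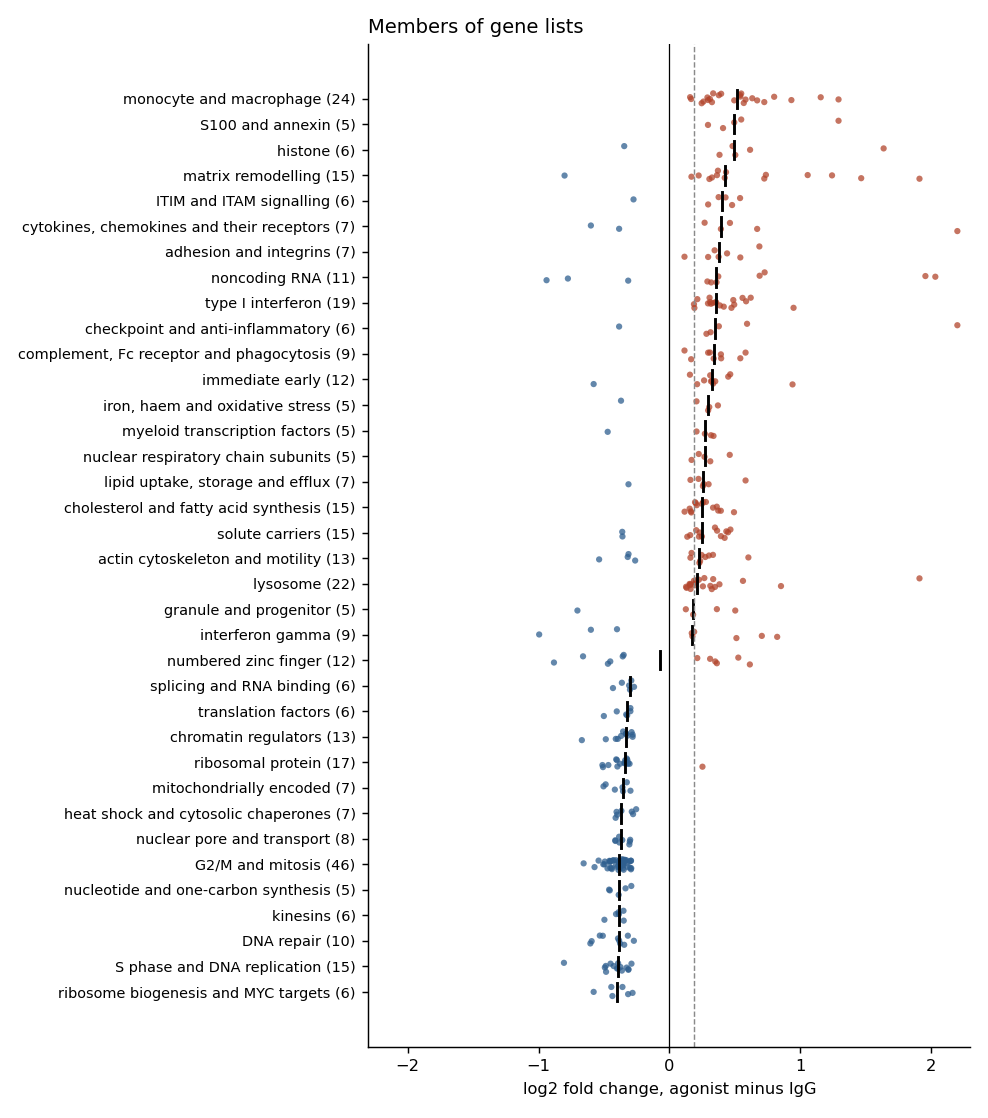
Log2 fold change, agonist minus IgG, of the listed members of each gene list with at least 5 of them (points, number in brackets, red above and blue below IgG), with the list median as a black bar and the median of all listed genes, 0.19, as a dashed line. The dashed line pools rises and falls, whose own medians were 0.33 and -0.39. IL10, past the axis, is drawn at its right edge in 2 lists.

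Over the whole table, the largest rises among separate groups with a mean of at least 20 counts were ACP5, CD52, YPEL4, PHOSPHO1, A2M, FOLR2, S100A12, SMPD5, RILP, SPP1, GAPLINC and ADCY6, from 1.91 down to 1.19. CD52, a small surface glycoprotein of leukocytes, had 22.2, 10.3 and 57.4 normalised counts in the IgG libraries and 126, 95.3 and 111 in the agonist libraries (1.86 ± 0.38, SE). FOLR2, a folate receptor of macrophages, had 5.8, 13.7 and 23.2 normalised counts in the IgG libraries and 31.8, 42.6 and 33.1 in the agonist libraries (1.33 ± 0.41, SE). In both genes the IgG libraries differed several-fold among themselves, yet the lowest agonist library was above the highest IgG library. The largest falls by the same rule were RNF112, TSSK6, GPR176, TMEM269, MASP2, CD247, EEF1AKMT1, LZTS1, CXCL11, DNAJB4, DCAF4L1 and ELFN2, from -2.09 to -0.89. MASP2, a serine protease of the lectin pathway of complement, had 67.7, 88.2 and 51.3 normalised counts in the IgG libraries and 26.2, 28.4 and 30.3 in the agonist libraries (-1.28 ± 0.27, SE). SULT1A4, a sulfotransferase with near copies, had 40 summed counts with IgG and 3 with the agonist, a ratio of 14.5 (95% counting interval 4.61 to 73.1).

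The antagonist antibody was given to other U937 cells under the same labels, with its own IgG libraries, and no library is shared between the comparisons. The 2 IgG groups were not alike. As CPM of the summed counts of the 902 genes found in both tables, 43 genes (4.77%) were more than 10-fold higher in the IgG libraries of the agonist set and 2 (0.222%) in those of the antagonist set, after adding 1 CPM. Interferon and monocyte genes stood out: 7 of 19 type I interferon, 4 of 9 interferon gamma and 10 of 24 monocyte genes were more than 10-fold higher in the agonist set's IgG, and 0 of 17 ribosomal protein genes were. CXCL10 had 2165 summed counts in the IgG libraries of the agonist set and 0 in those of the antagonist set, and CD163 had 1356 and 0. A difference between the effects of the antibodies and a difference between the sets of cells cannot be told apart.

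Of 13778 genes tested in the antagonist set 4978 passed (36.1%), 2147 higher (15.6%) and 2831 lower (20.5%). Of the 503 genes higher with the agonist 476 were tested there: 101 were higher and 118 lower with the antagonist and 257 did not pass (median -0.04). Of the 400 lower genes 391 were tested: 54 were higher, 128 lower and 209 did not pass (median -0.09). The effects of the antibodies differed for 510 of 902 shared genes by the edgeR interaction test (56.5%), with the agonist effect above for 268 (29.7%) and below for 242 (26.8%). The share above was 52.5%, and 39.2% of 536 with DESeq2 size factors and 40.6% of 529 with library totals.

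Ribosomal proteins were lower with both antibodies, 16 of 17 listed members each, with medians of -0.34 and -0.43, and for 0 of 17 did the effects differ. Chromatin regulators parted: all 13 were lower with the agonist, while 6 were higher and 3 lower with the antagonist, and 10 of 13 effects differed. For SETD1B the log2 fold change was -0.67 ± 0.12 with the agonist and 0.88 ± 0.10 with the antagonist (SE). Among all genes higher with the agonist, 260 of 476 (54.6%) had an agonist effect above that of the antagonist, and among all lower genes 229 of 391 (58.6%) had one below. Beside these shares, the agonist effect was above for 12 of 15 cholesterol and 16 of 21 lysosomal genes. Smaller lists also lay past that share, such as 5 of 5 nuclear respiratory chain, 4 of 4 glycolysis and 5 of 6 ITIM and ITAM genes. All these counts rest on TMM scaling. The agonist effect was above for 9 of 16 type I interferon genes and below for 24 of 46 G2/M genes, close to or under the shares of all genes. IFI6 rose with the agonist (0.56 ± 0.08) and fell with the antagonist (-0.49 ± 0.07). For lists, these counts describe the members and are not a test of the list.

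**Figure D5:**
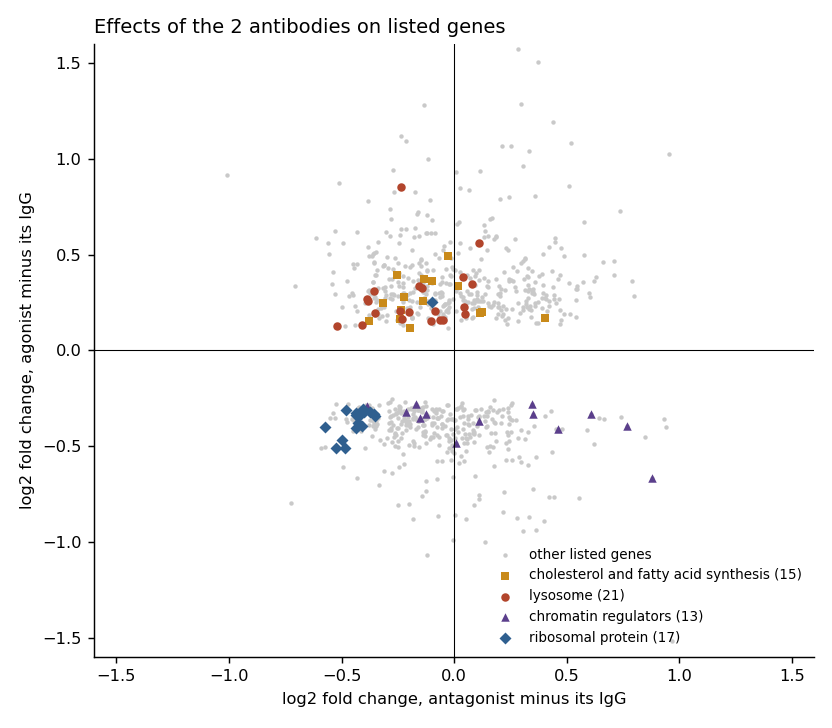
Log2 fold change with the agonist (vertical) against that with the antagonist (horizontal), each against its own IgG, for listed genes tested in both sets, of which 14 of 867 lie outside the axes. Ribosomal protein genes (blue diamonds) lie below 0 on both axes except RPL22L1, which is above 0 with the agonist, and chromatin regulators (purple triangles) lie on both sides of 0 with the antagonist only.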

How the data were processed

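Per the labels' protocols, U937 RNA was isolated with Trizol and chloroform, and NEBNext Ultra kits gave the libraries. The authors deposited whole-number read counts per gene, with no normalization, in 1 table for each antibody. HISAT2, Cufflinks and build hg38 are named, per the submitters' processing notes. Not given in the sources used here are strand use, gene annotation, the counter and tool versions. Columns carry the group name only, so library numbers follow the order of columns and pair nothing.

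Counts were tested with edgeR 4.0.16 (R 4.3.3): filterByExpr, TMM scaling, the robust quasi-likelihood test and Benjamini-Hochberg adjustment over the 904 listed genes at 0.05. TMM assumes that most genes are unchanged, which a selected table cannot show, so the zero point of fold changes is uncertain. The antagonist set was fitted in the same way over its full table, after 570 rows without a gene symbol were left out. Antibodies were compared by an interaction term (set by treatment) fitted to 902 shared genes, each set scaled on its own. Errors are SE of log2 fold changes, from the fold change and the F statistic. The scripts were tested on simulated data. Alternatives were DESeq2 1.42.0 size factors and its Wald test, listed totals, a zero point at the middle of the gap, no filter, robust off, and each library left out.

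The text names LILRB3, 12 rises and 12 falls, the largest past 0.05 with separate groups and a mean of at least 20 counts (without uncharacterised, antisense and small RNA symbols), and up to 8 members of each of 53 lists by size. Other members are named as examples. The lists and members were chosen with earlier results of these data known, and 5 further lists after the values were seen. Promoters and coordinates are from RefSeq GRCh38.p14, and transcript length and GC content from GENCODE by symbol. Intervals cover counting error only.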

Additional observations from a re-analysis of the deposited data

Results flagged for a closer look

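The effect of the agonist differed from that of the antagonist, by the interaction test over all 12 libraries, for 510 of the 902 genes in both tables. Of all 867 listed genes tested with both antibodies, 172 (19.8%) were called in opposite directions in the 2 comparisons with differing effects. Of the 273 genes named by rule 62 were, a share near that of all genes, and the 10 with the largest difference follow. The agonist effect minus the antagonist effect, on the log2 scale, was -2.484 for TMEM269, -2.426 for TSSK6, -1.83 for MASP2, -1.549 for SETD1B, -1.29 for ELFN2, -1.161 for ARID1A and -1.006 for the mitochondrial gene ND5, all lower with the agonist and higher with the antagonist. It was 1.058 for RNASE3, 1.052 for IFI6 and 1.04 for DUSP5, all higher with the agonist and lower with the antagonist. The IgG libraries of the sets differed from each other, and a difference between the antibodies and one between the sets cannot be told apart.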

How the results depend on the processing

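The count of listed genes past the threshold was 903 and ranged from 708 to 904 over 12 other settings, with no change of direction. Higher genes numbered 503, and 317 with DESeq2 size factors and 308 with the DESeq2 Wald test, in both of which all 400 lower genes passed. These size factors moved the median log2 fold change by -0.09. In both of these settings 10 lysosomal, 8 cholesterol and 0 ribosomal protein genes were higher, against 22, 15 and 1. With 1 library left out, between 846 and 885 genes passed, and 0 to 1 ribosomal protein genes were higher. Of 273 genes named by rule 243 passed in every setting. The effects of the antibodies differed for 461 to 530 genes with 1 library left out. Filters and robust fitting changed no call of a named gene. No paired analysis was possible because the columns carry no replicate numbers. Depth is unknown for these 6 libraries, since the table is partial, and genes that are not listed could not be judged.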
